A study of Mus musculus with 14 samples.

Results

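AP-1 subunit genes were followed through 2 RNA-sequencing experiments on Ocy454 cells, an osteocyte-like mouse cell line. The 10 genes are Fos, Fosb, Fosl1, Fosl2, Jun, Junb, Jund, Atf3, Maff and Batf3, taken by name, and all 10 were found among the 39179 genes of the time-course table and among the 35886 genes summed from transcripts in the sorted cells. Ocy454 cells carry a thermosensitive large T antigen, so that they divide at a permissive temperature and differentiate after a shift to a higher one. They are 1 line, and every group below shares that background. The time course holds cells lysed on days 1, 7, 10 and 14 after the shift, with 2 libraries per day. The sort holds live cells collected on day 17 according to the labels, stained for CD61, which is integrin beta 3, and gated into CD61 high and CD61 low cells, each gate taking 10% of the cells from its end of the signal, with 3 libraries each.

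AP-1 is a family of dimeric basic leucine zipper transcription factors. Jun proteins (Jun, Junb, Jund) can pair with each other, whereas Fos proteins (Fos, Fosb, Fosl1, Fosl2) need a Jun partner. The dimers bind the TPA response element TGACTCA and, with ATF partners, the cyclic AMP response element TGACGTCA. Atf3 is a stress-induced ATF protein, Batf3 a small partner of Jun proteins, and Maff a small Maf protein without a transactivation domain. Fos, Fosb, Junb and Atf3 are classical immediate early genes, whose messages rise within minutes of a stimulus and are short-lived. In bone, Fosl1, Fosl2, Junb and the short form of Fosb are known to influence osteoblast differentiation and bone mass, and AP-1 is activated when bone cells are loaded or exposed to parathyroid hormone.

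The 4 genes with the largest Log2FC between days 14 and 1 were Maff, Fosb, Atf3 and Fos, and their promoters are shown because all 4 were called higher on day 14. Each run is the 250 bases before a RefSeq start site on GRCm38.p6, 5′ to 3′ along the gene's own strand, and capitals mark the motif matches described after them. Maff has 3 such windows, of which the one with the full cyclic AMP response element is given.
Fos, chr12:85473640-85473889, plus strand: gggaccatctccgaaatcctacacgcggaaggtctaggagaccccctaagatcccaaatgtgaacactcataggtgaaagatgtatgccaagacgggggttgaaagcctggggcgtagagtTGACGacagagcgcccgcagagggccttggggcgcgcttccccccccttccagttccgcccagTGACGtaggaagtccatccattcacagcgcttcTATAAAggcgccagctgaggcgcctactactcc
Fosb, chr7:19310046-19310295, minus strand: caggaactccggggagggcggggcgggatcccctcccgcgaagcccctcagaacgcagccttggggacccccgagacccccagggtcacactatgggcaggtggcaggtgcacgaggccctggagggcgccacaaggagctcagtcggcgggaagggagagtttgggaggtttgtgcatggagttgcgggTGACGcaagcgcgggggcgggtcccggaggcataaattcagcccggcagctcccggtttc
Atf3, chr1:191183334-191183583, minus strand: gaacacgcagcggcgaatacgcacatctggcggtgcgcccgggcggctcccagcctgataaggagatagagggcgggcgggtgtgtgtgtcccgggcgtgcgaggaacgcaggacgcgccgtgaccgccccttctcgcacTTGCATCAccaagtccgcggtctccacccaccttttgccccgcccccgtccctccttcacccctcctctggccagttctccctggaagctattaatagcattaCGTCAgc
Maff, chr15:79347270-79347519, plus strand: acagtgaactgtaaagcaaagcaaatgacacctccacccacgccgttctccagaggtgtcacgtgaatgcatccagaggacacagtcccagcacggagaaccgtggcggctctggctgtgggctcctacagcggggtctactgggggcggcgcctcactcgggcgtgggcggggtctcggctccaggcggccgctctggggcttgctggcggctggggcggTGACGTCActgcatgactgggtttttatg

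Windows were available for 9 of the 10 genes, 11 windows in all, and Fosl1 had none. The letters searched on both strands were TGACTCA, TGACGTCA, the shorter TGACG contained in it, TGATGNAA, the core of the element bound by ATF4 with C/EBP partners, and the CArG box bound by serum response factor. TATAAA was searched on the sense strand only. The Fos window held TATAAA from base -33 to base -28 before the start and TGACG at bases -129 and -66. The Fosb window held TGACG at base -60 and the Junb window held it at base -106. The Atf3 window held TGATGNAA on the opposite strand, read here as TTGCATCA, from base -110 to base -103, and CGTCA, the reverse complement of TGACG, at base -7. The Maff window held TGACGTCA from base -29 to base -22, and another Maff window held CGTCA at base -122. TGACTCA and the CArG box were found in none of the 11 windows. Bases outside the windows were not searched, so a site there would have been missed. Over all 32851 windows of this length, 1.55% held TGACGTCA, 17.8% TGACG, 3.45% TGATGNAA, 7.59% TATAAA, 4.46% TGACTCA and 1.47% the CArG box. These matches describe letters in the windows and are not evidence of binding.

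Over differentiation, the AP-1 subunit genes differed in when and how far they moved. Maff, Atf3, Fos, Fosb and Jund rose by day 14, Jun fell at day 7 and was back near its first level by day 10, and Fosl2 stayed within a narrow range. Values are CPM as deposited, reads per gene scaled to a common library total, and Log2FC is the difference in log2(CPM + 1), which understates changes of genes with few reads. A gene was called when its adjusted p in limma was below 0.01 and its Log2FC was above 1 or below -1. All 10 genes passed the filter on low values, a CPM above 1 in at least 1 of the 8 libraries. The comparisons with day 1 share the 2 day 1 libraries and are therefore not independent of each other. The SE of a Log2FC in limma rests on a spread estimated over all 8 libraries, not only on the days compared.

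**Figure D1:**
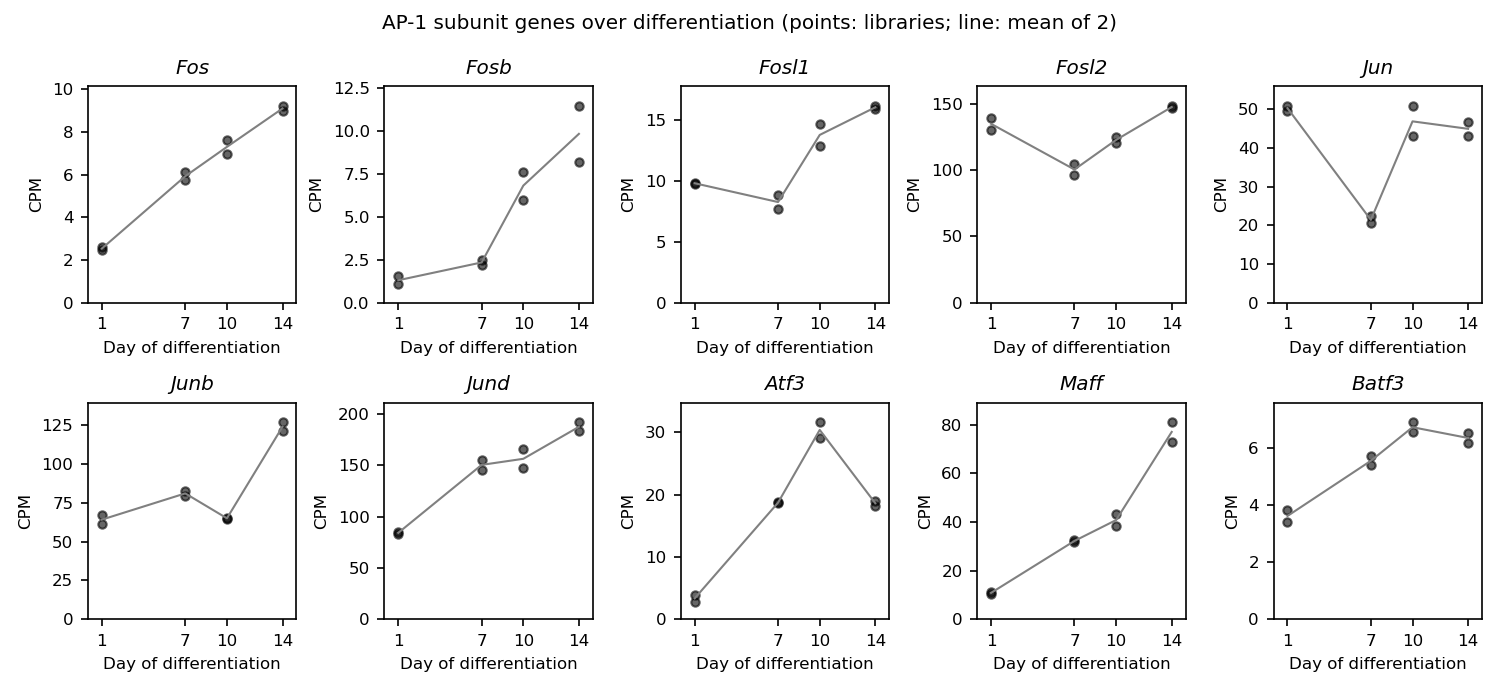
CPM of each AP-1 subunit gene (vertical axis, one scale per panel, starting at 0) by day of differentiation (horizontal axis). Points are single libraries and the line joins the means of 2. Maff climbs from about 11 CPM to 73.1 and 81.1, Jun dips to 20.5 and 22.3 CPM at day 7, and Atf3 peaks at day 10.

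At day 7 against day 1, 2 of the 10 genes were called higher (Atf3 and Maff) and 1 lower (Jun), beside 4.49% of the 12725 genes tested called higher and 4.62% lower. At day 10 against day 1, 4 were called higher (Fos, Fosb, Atf3 and Maff) and 0 lower, beside 6.06% and 4.42% of all genes. At day 14 against day 1, 5 were called higher (those 4 and Jund) and 0 lower, beside 7.51% and 5.9%. The median Log2FC of the 10 genes was 0.52, 0.81 and 1.04 in these 3 comparisons, where the median of all tested genes was -0.05, 0.02 and -0.03. Between days 7 and 10, 2 genes were called higher (Fosb and Jun) and 0 lower, beside 1.43% and 0.786%. Between days 10 and 14 limma called 0 of the 10 in either direction, beside 2.09% and 0.872% of all genes, and edgeR on the recovered reads also called 0. There 8 of the 10 had an unadjusted p below 0.05, as did 66.3% of all genes. Where 0 were called lower by limma, 1 gene had an unadjusted p below 0.05 with a Log2FC below 0, which was Fosl2 at day 10 against day 1, Jun at day 14 against day 1, Junb at day 10 against day 7, and Atf3 at day 14 against day 10. Of all genes 35.4%, 40.5%, 24.9% and 37.3% were lower at that unadjusted p in these comparisons.

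Among the Fos family, Fosb rose most. Fosb (ENSMUSG00000003545, GRCm39 chr7:19036621-19043976, minus strand) was read at 1.06 and 1.54 CPM on day 1, 2.49 and 2.18 on day 7, 7.62 and 5.99 on day 10, and 11.5 and 8.18 on day 14. Every day lay above the one before without overlap, and the step from day 7 to day 10 was the one that was called, with a Log2FC of 1.22 ± 0.14 (SE; limma adjusted p = 7.3e-08). Against day 1, its Log2FC was 0.54 ± 0.14 at day 7, 1.76 ± 0.14 at day 10 and 2.22 ± 0.14 at day 14 (limma adjusted p = 2.4e-13 for day 14). On day 1 these values rest on 36 and 49 reads.

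Fos (ENSMUSG00000021250, GRCm39 chr12:85520658-85524047, plus strand), the founding Fos protein, stood at 2.63 and 2.45 CPM on day 1, 6.12 and 5.74 on day 7, 7.65 and 6.96 on day 10, and 9.24 and 8.98 on day 14. It too stepped up at each day without overlap, with the widest step before day 7. The Log2FC against day 1 was 0.97 ± 0.11 at day 7 (limma adjusted p = 1.3e-08, short of the fold threshold), 1.23 ± 0.11 at day 10 and 1.52 ± 0.11 at day 14 (adjusted p = 1.5e-12). At day 7 it passed the threshold with a pseudocount of 0.1 (Log2FC 1.19) and in edgeR on the recovered reads (1.27).

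The Fos-related antigens Fosl1 and Fosl2, which lack the strong transactivation domains of Fos and Fosb, shared a low point at day 7. Fosl1 (ENSMUSG00000024912, GRCm39 chr19:5497575-5505974, plus strand) was at 9.86 and 9.79 CPM on day 1, 8.88 and 7.67 on day 7, 14.7 and 12.9 on day 10, and 15.9 and 16.2 on day 14. Its days ran in the order 7, 1, 10, 14 with no overlap, and the Log2FC of day 14 against day 1 was 0.66 ± 0.09 (limma adjusted p = 5.7e-07), under the fold threshold. Fosl2 (ENSMUSG00000029135, GRCm39 chr5:32292707-32315186, plus strand) was at 139.5 and 130.8 CPM on day 1, 96.6 and 104.6 on day 7, 125.4 and 120.5 on day 10, and 148.8 and 146.8 on day 14. Its days ran in the order 7, 10, 1, 14, again without overlap, but the whole range was small: the Log2FC was -0.42 ± 0.04 at day 7 and 0.13 ± 0.04 at day 14 against day 1 (limma adjusted p = 4.8e-09 and 0.011).

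In the Jun family the 3 genes followed 3 different courses. Jun (ENSMUSG00000052684, GRCm39 chr4:94937271-94940459, minus strand), the strongest activator of the family, was at 50.9 and 49.7 CPM on day 1, 20.5 and 22.3 on day 7, 50.8 and 43.0 on day 10, and 46.7 and 43.2 on day 14. Day 7 lay apart below the other days, and the ranges of day 10 overlapped those of both day 14 and day 1. The fall at day 7 had a Log2FC of -1.20 ± 0.07 (limma adjusted p = 2.2e-14), and the return by day 10 one of 1.09 ± 0.07 (adjusted p = 5.2e-13), which was 0.98 and no longer called without day 10 replicate 1.

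Junb (ENSMUSG00000052837, GRCm39 chr8:85701113-85705359, minus strand), known both as an antagonist of Jun and as an immediate early gene, was at 67.1 and 61.2 CPM on day 1, 79.4 and 82.7 on day 7, 65.2 and 64.8 on day 10, and 121.1 and 127.0 on day 14. Days 1 and 10 overlapped, day 7 lay above both and day 14 above all. Its Log2FC was 0.94 ± 0.05 for day 14 against day 1 (limma adjusted p = 1.4e-15) and 0.92 ± 0.05 for day 14 against day 10 (adjusted p = 1.1e-14), both just under the fold threshold, and without day 1 replicate 1 the first was 1.01. Jund (ENSMUSG00000071076, GRCm39 chr8:71151599-71153265, plus strand), the member with the steadiest expression in most tissues, was at 85.0 and 83.2 CPM on day 1, 145.2 and 155.5 on day 7, 165.4 and 147.2 on day 10, and 182.9 and 192.0 on day 14. Days 7 and 10 overlapped, while day 1 lay below and day 14 above them, and the Log2FC of day 14 against day 1 was 1.15 ± 0.05 (limma adjusted p = 1.7e-17).

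Maff had the largest Log2FC of the 10 genes at day 14 against day 1 on the log2(CPM + 1) scale, whereas by the ratio of mean CPM Fosb stood first, at 7.55. Maff (ENSMUSG00000042622, GRCm39 chr15:79230821-79243276, plus strand) was at 10.5 and 11.1 CPM on day 1, 31.8 and 32.6 on day 7, 43.3 and 38.3 on day 10, and 73.1 and 81.1 on day 14. The days were ordered in time without overlap. Its Log2FC against day 1 was 1.49 ± 0.07, 1.82 ± 0.07 and 2.72 ± 0.07 at days 7, 10 and 14 (limma adjusted p = 1.5e-16, 1.5e-18 and 1.5e-22), a ratio of mean CPM of 7.14 at day 14.

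Atf3 rose by day 7 and was lower on day 14 than on day 10, a difference that was not called. Atf3 (ENSMUSG00000026628, GRCm39 chr1:190902493-190950241, minus strand) was at 3.90 and 2.76 CPM on day 1, 18.6 and 18.8 on day 7, 31.7 and 29.2 on day 10, and 18.2 and 19.0 on day 14. Days 7 and 14 overlapped, day 1 lay far below them and day 10 above. The Log2FC against day 1 was 2.20 ± 0.10, 2.87 ± 0.10 and 2.19 ± 0.10 at days 7, 10 and 14 (limma adjusted p = 1.3e-16, 3.2e-19 and 9.1e-17), and that of day 14 against day 10 was -0.68 ± 0.10 (adjusted p = 1.6e-06). Batf3 (ENSMUSG00000026630, GRCm39 chr1:190830044-190841142, plus strand), whose nearest end lies 61350 bases from that of Atf3, was at 3.39 and 3.83 CPM on day 1, 5.70 and 5.39 on day 7, 6.89 and 6.54 on day 10, and 6.18 and 6.50 on day 14. It also stood highest at day 10, but its Log2FC did not exceed 0.74 ± 0.11, at day 10 against day 1 (limma adjusted p = 1.2e-06), and it was not called in any comparison.

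Genes with the pattern most like that of the 2 members with the largest Log2FC between days 14 and 1 were ranked by the root mean square difference of their centred log2 profiles over the 8 libraries, among 10312 genes whose mean was at least 5 CPM. For Maff the nearest was Ptgs2, the inducible cyclooxygenase, at a difference of 0.11, with 13.9 CPM on day 1 and 96.3 on day 14. Dusp8, a phosphatase of stress-activated kinases, followed at 0.12, from 5.44 to 42.2 CPM, and Zfp467, a zinc finger protein, at 0.14, from 3.84 to 24.5 CPM. For Fosb the nearest were the nuclear receptor Rora at 0.21, from 23.1 to 108.1 CPM, Fam189a2 at 0.23 and the phosphodiesterase Enpp6 at 0.26. The Fosb neighbours were less close than those of Maff, and all of these distances are descriptions over 8 libraries.

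Levels of different genes were compared only per length, as CPM per kb of the gene length given in the table. On this scale Junb and Jund were the first 2 genes on every day, but their order depended on the day and on the length used. On day 1 Junb took 30.0% ± 1.00 (SD, n = 2) of the summed level of the 10 genes, Jund 25.2% ± 0.42 and Fosl2 19.9% ± 0.27. Jund led on day 7, with 33.2% ± 0.70 against 28.0% ± 0.03 for Junb, and on day 10, with 30.9% ± 0.73 against 20.2% ± 1.11. On day 14 Junb took 28.5% ± 0.19, Jund 27.5% ± 0.20, Maff 15.4% ± 0.72 and Fosl2 10.7% ± 0.40. Per kb of the annotated exons of GENCODE M39, the length that the analysis plan named, Jund led on every day. It took 42.3% ± 0.57 on day 1 and 46.5% ± 0.35 on day 14. Junb followed with 22.6% ± 0.82 and 21.5% ± 0.15. Jun, with 13.2% ± 0.15, stood before Fosl2, with 10.9% ± 0.18, on day 1. On both lengths Maff moved from the sixth to the third place, while Fos and Fosb, with 1.64% ± 0.08 and 1.11% ± 0.29 on day 14 on the table's length, were the last 2 of the 10 on every day. On the table's length, the level summed over the Fos family was 30.3, 25.2, 34.1 and 41.2 CPM per kb on days 1, 7, 10 and 14 (means of 2), over the Jun family 74.1, 100.6, 99.0 and 141.5, and over Atf3, Maff and Batf3 11.7, 31.4, 42.4 and 53.7.

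**Figure D2:**
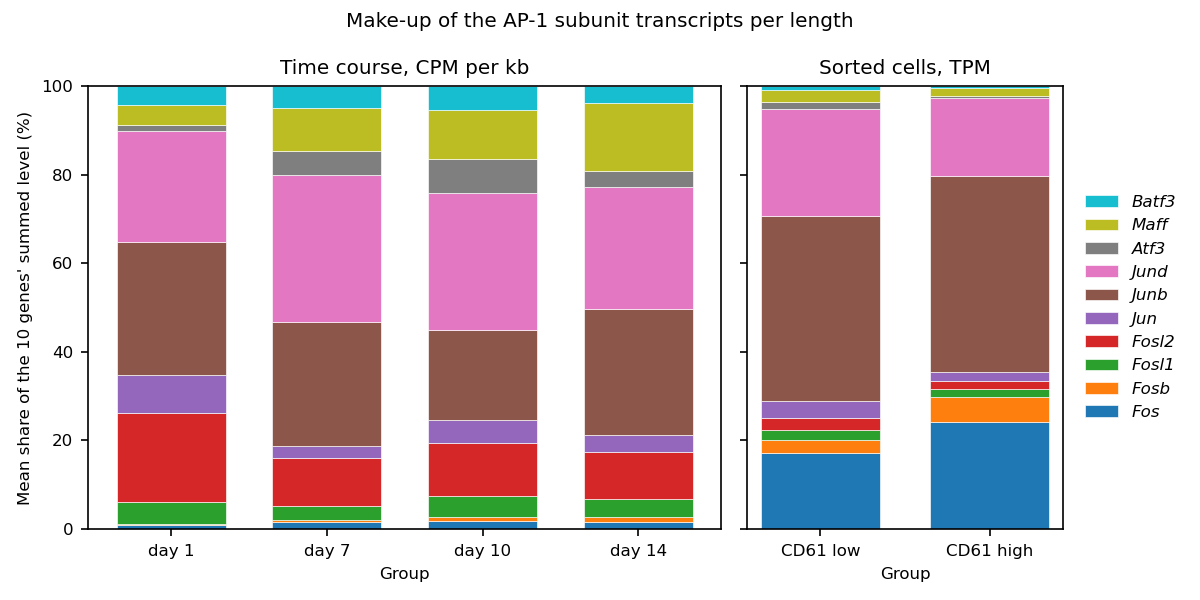
Mean share of each AP-1 subunit gene in the summed level of the 10 genes (vertical axis, %), for the 4 days on CPM per kb (means of 2 libraries) and for the sorted groups on TPM (means of 3). Junb and Jund fill the largest segments in the time course, and Fos takes 17.1% and 24.1% in CD61 low and CD61 high cells; the scales of the 2 panels were made separately.

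In the sorted cells, Fos and Fosb were higher and Atf3 lower in CD61 high than in CD61 low cells, and Junb was higher by less than the fold threshold. The sort itself was checked on Itgb3, which encodes CD61: it was read at 130.1, 100.1 and 103.6 CPM after the CD61 high gate and at 5.31, 5.54 and 6.10 CPM after the CD61 low gate. CPM here are counts scaled with TMM factors, a correction for libraries of different composition, and tests were made with edgeR's quasi-likelihood model. All 10 genes passed the filter of at least 5 normalized counts in each of the 6 libraries. Of the 10, 2 were called higher and 1 lower in CD61 high cells, beside 4.84% of the 12077 genes tested called higher and 4.37% lower. The median Log2FC of the 10 genes was 0.26, against 0.00 over all genes tested.

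**Figure D3:**
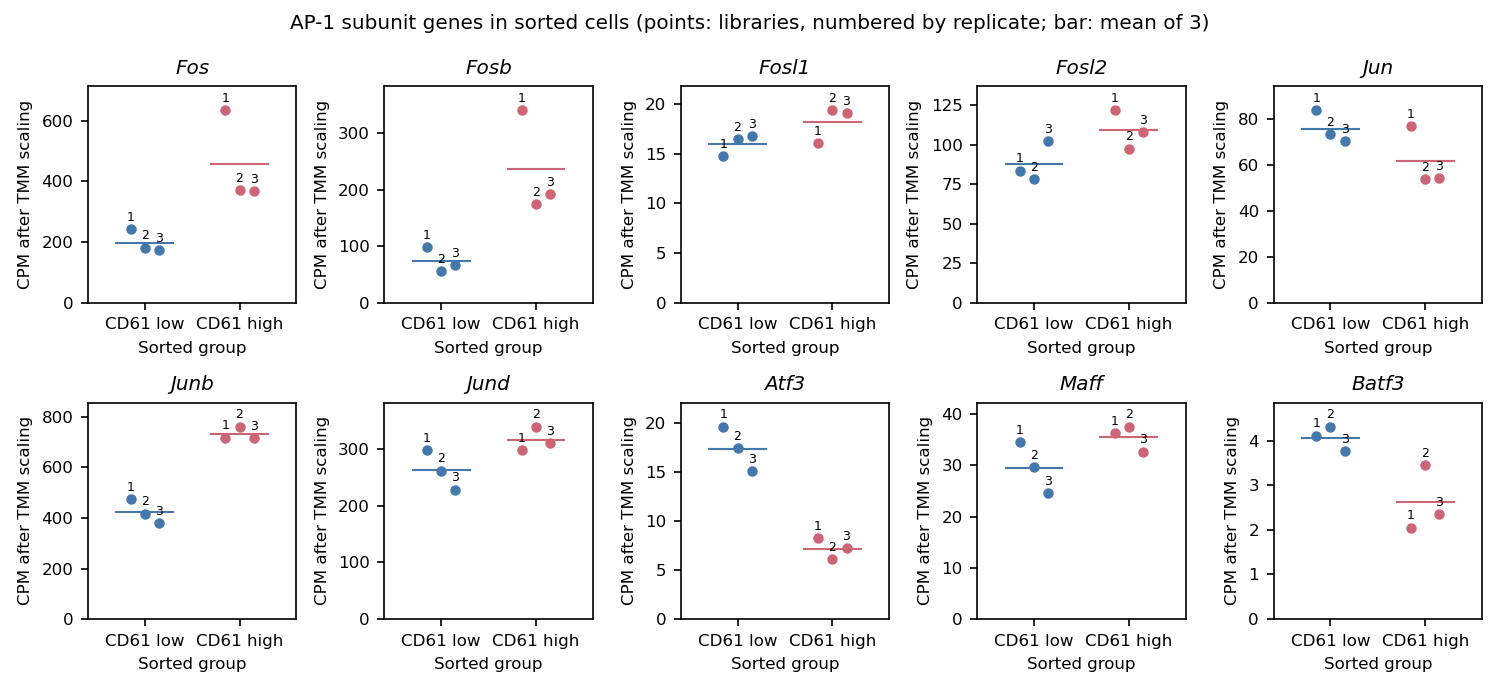
CPM after TMM scaling (vertical axis, one scale per panel, starting at 0) in CD61 low and CD61 high cells. Points are libraries numbered by replicate and bars are means of 3. Fos, Fosb and Junb separate upward and Atf3 downward, and CD61 high replicate 1 stands above the other CD61 high libraries for Fos and Fosb.

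Fosb was at 98.3, 55.9 and 66.0 CPM in CD61 low and at 341.1, 174.7 and 191.7 in CD61 high replicates 1, 2 and 3. Fos was at 241.2, 181.2 and 171.8 CPM in CD61 low and at 634.7, 370.5 and 366.8 in CD61 high replicates. The groups did not overlap for either gene, and replicate 1 was the highest of its group in both groups. The Log2FC was 1.68 ± 0.26 for Fosb (SE; edgeR adjusted p = 0.00041) and 1.21 ± 0.21 for Fos (edgeR adjusted p = 0.00076). Fosb stayed called with each library left out (Log2FC 1.32 to 1.95). Fos did not: without CD61 high replicate 1 its Log2FC was 0.90, and with scaling by library size alone it was 0.91, both under the threshold.

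Junb was at 473.8, 416.8 and 380.5 CPM in CD61 low and at 717.9, 761.3 and 716.4 in CD61 high libraries. These groups stood well apart, with a Log2FC of 0.79 ± 0.09 (edgeR adjusted p = 4e-05), a ratio of means of 1.73, and the gene was not called because the Log2FC was under 1. The other Jun genes overlapped between the groups. Jund was at 298.8, 262.4 and 228.7 against 298.0, 340.1 and 310.2 CPM (Log2FC 0.26 ± 0.10, edgeR adjusted p = 0.048), and Jun at 84.0, 73.3 and 70.3 against 77.0, 53.9 and 54.1 CPM (Log2FC -0.30 ± 0.14, edgeR adjusted p = 0.089).

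Atf3 went the other way from Fos. It was at 19.7, 17.5 and 15.1 CPM in CD61 low and at 8.27, 6.10 and 7.24 in CD61 high libraries, without overlap, a Log2FC of -1.27 ± 0.15 (edgeR adjusted p = 6.4e-05) that ranged from -1.38 to -1.17 with each library left out. Batf3 was at 4.11, 4.32 and 3.76 CPM in CD61 low and at 2.05, 3.45 and 2.35 in CD61 high libraries, from 35 to 92 counts per library. The Batf3 groups did not overlap, but the Log2FC of -0.63 ± 0.23 was under the fold threshold (edgeR adjusted p = 0.04). Maff overlapped between the groups, with 34.4, 29.6 and 24.6 against 36.2, 37.5 and 32.6 CPM (Log2FC 0.26 ± 0.12, edgeR adjusted p = 0.093).

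Fosl1 and Fosl2 also overlapped between the sorted groups. Fosl1 was at 14.8, 16.5 and 16.7 CPM in CD61 low and at 16.1, 19.4 and 19.1 in CD61 high libraries (Log2FC 0.18 ± 0.11, edgeR adjusted p = 0.19). Fosl2 was at 83.5, 78.3 and 102.4 against 121.9, 97.5 and 108.1 CPM (Log2FC 0.31 ± 0.11, edgeR adjusted p = 0.042). Scaling by library size alone lowered the median of all genes to -0.30, and the Log2FC of Fosl1, Jund and Maff then fell below 0. On that scale Fosb was at 1.38, Junb at 0.49 and Atf3 at -1.58.

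**Figure D4:**
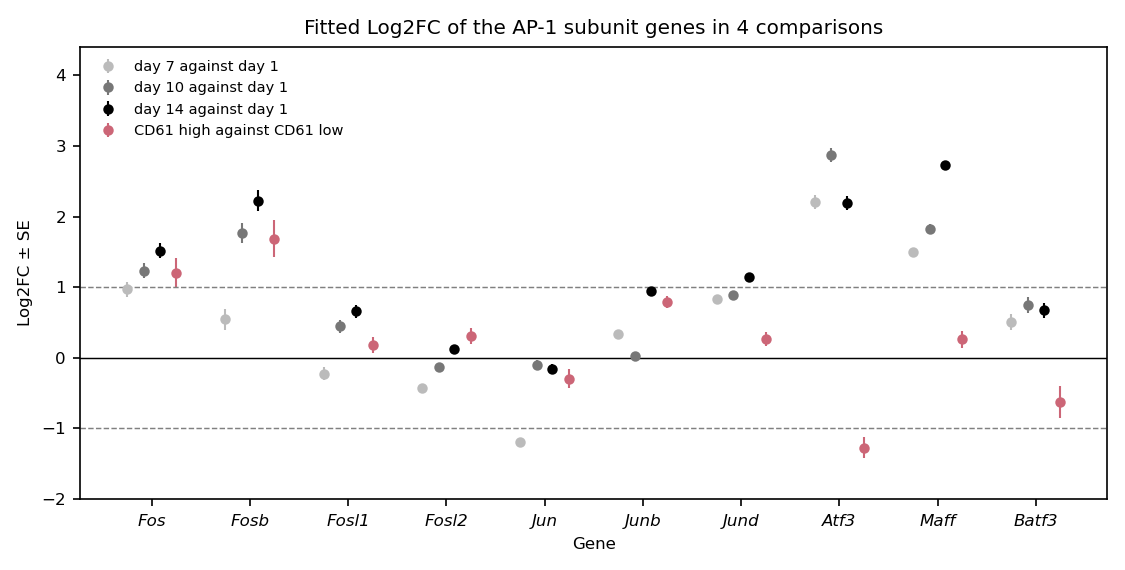
Fitted Log2FC ± SE (vertical axis) of each AP-1 subunit gene in 4 comparisons. These are days 7, 10 and 14 against day 1 (limma, n = 2 per day) and CD61 high against CD61 low cells (edgeR, n = 3 per group). Dashed lines mark 1 and -1. The SE in limma rests on a spread estimated over all 8 libraries. Fos and Fosb lie above 0 in all 4 comparisons, whereas Atf3 is at 2.19 on day 14 and at -1.27 in the sort.

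On TPM, the deposited per-length unit of the sorted libraries, Junb took 41.6% ± 0.52 (SD, n = 3) of the summed level of the 10 genes in CD61 low cells, Jund 24.2% ± 0.97 and Fos 17.1% ± 1.24. In CD61 high cells Junb took 44.3% ± 4.80, Fos 24.1% ± 5.64, Jund 17.5% ± 2.63 and Fosb 5.83% ± 1.71. The summed TPM of the Fos family was 278.4 ± 32.1 in CD61 low and 513.5 ± 177.8 in CD61 high cells, that of the Jun family 773.7 ± 76.3 and 952.0 ± 21.7, and that of Atf3, Maff and Batf3 57.5 ± 5.50 and 41.0 ± 2.85 (SD, n = 3). Per kb of annotated exon instead of TPM, the share of Junb was 36.3% in CD61 low and 39.5% in CD61 high cells, and Junb was still first.

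The transcript estimates of the sorted libraries show which annotated forms the reads were assigned to. Jun, Junb and Jund have a single-exon coding transcript, which held all or nearly all of their counts, and Atf3 was assigned wholly to Atf3-201, which encodes 181 residues. For Fos, Fos-201 held 96.9% ± 0.60 of the counts in CD61 low and 95.4% ± 0.88 in CD61 high cells. For Fosb, the full-length form Fosb-201 of 338 residues held 74.4% ± 11.4 and 62.5% ± 12.7, and a retained-intron form held 16.5% ± 2.22 and 15.3% ± 2.81. The Fosb-206 form of 237 residues, the length of the truncated protein known as ΔFosB, received at most 8.31 counts in any library. Fosb-203, a form of 263 residues, received 0 counts in the CD61 low libraries and from 0 to 662.9 in the CD61 high libraries. All 3 main Maff forms encode the same 156 residues, and Maff-202 held 15.4% ± 4.18 of the counts in CD61 low and 25.3% ± 1.83 in CD61 high cells, without overlap. Such shares are model estimates that split reads between overlapping forms, and no test was made on them.

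Side by side, the sorted day 17 cells held far more Fos, Fosb and Junb than the cells lysed on day 14. Fos was at 8.98 to 9.24 CPM on day 14 and at 171.8 to 634.7 CPM in the 6 sorted libraries. Fosb was at 8.18 to 11.5 against 55.9 to 341.1, and Junb at 121.1 to 127.0 against 380.5 to 761.3. Atf3 and Maff did not share this: Atf3 was at 18.2 to 19.0 CPM on day 14 and 6.10 to 19.7 in the sorted libraries, and Maff at 73.1 to 81.1 against 24.6 to 37.5. The 2 experiments differ in day, in handling (cells lysed on the plate against cells detached, stained and sorted), in RNA isolation and in quantification, and these cannot be told apart. No test was made across them.

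The other immediate early genes and genes induced by tissue dissociation, a list of 20 of which 19 were tested in each experiment, are given beside Fos, Fosb and Junb. At day 14 against day 1, 9 were called higher and 1 lower, beside 7.51% and 5.9% of all genes, with a median Log2FC of 0.76. The largest changes were those of the nuclear receptor Nr4a1, from 3.87 ± 0.41 to 60.0 ± 6.69 CPM (SD, n = 2; Log2FC 3.65), the Krüppel-like factor Klf4, from 60.7 ± 2.88 to 561.2 ± 3.30 CPM (3.19), and Egr1, a zinc finger immediate early factor, from 25.4 ± 0.74 to 193.0 ± 10.4 CPM (2.88). At day 7 against day 1, 4 were called higher and 1 lower, beside 4.49% and 4.62%. In CD61 high cells edgeR called 4 higher and 0 lower, beside 4.84% and 4.37%, with a median of 0.51, and at an unadjusted p below 0.05 it was 15 higher and 0 lower, beside 29.3% and 27.3%. With library size alone as the scaling, edgeR called 0 of them, beside 2.6% of all genes higher and 8.12% lower. Ier3 rose from 65.4 ± 6.74 to 159.7 ± 2.87 CPM (SD, n = 3; Log2FC 1.29), Klf2 from 62.9 ± 4.22 to 138.2 ± 11.7 CPM (1.14) and Ccn2, a matricellular protein, from 55.4 ± 5.37 to 121.0 ± 16.7 CPM (1.13). Nr4a1 was called higher in the sort too (Log2FC 1.03), whereas Egr1 had a Log2FC of 0.38 there and was not called.

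Genes of the integrated stress response, the pathway in which ATF4 induces Atf3, are given beside Atf3. Of 10 such genes, all tested, 6 were called higher and 0 lower at day 7 against day 1 (median Log2FC 1.09), 4 and 0 at day 10 (0.87), and 2 and 0 at day 14 (0.26). The shares of all genes called higher on these days were 4.49%, 6.06% and 7.51%, and those called lower 4.62%, 4.42% and 5.9%. At an unadjusted p below 0.05 in limma, 1, 2 and 2 of them were lower in these comparisons, beside 38.6%, 35.4% and 40.5% of all genes. At day 7 the proapoptotic factor Ddit3 was at 153.5 ± 0.11 CPM, against 50.2 ± 1.89 on day 1 (SD, n = 2; Log2FC 1.59), the glutathione-degrading enzyme Chac1 at 74.9 ± 0.47 against 23.0 ± 1.07 (1.66), and the pseudokinase Trib3 at 145.0 ± 4.17 against 59.0 ± 1.45 (1.28). From day 10 to day 14, when Atf3 had a Log2FC of -0.68 and was not called, 1 gene was called lower, beside 0.872% of all genes, which was Chac1, with a Log2FC of -1.48. In CD61 high cells edgeR called 0 higher and 2 lower, beside 4.84% and 4.37% of all genes, or 0 and 9 at an unadjusted p below 0.05, beside 29.3% and 27.3%. With library size alone it called 0 and 5, beside 2.6% and 8.12%. In the main scaling the median was -0.76, and 9 of the 10 had a Log2FC below 0. Ddit3 was at 121.6 ± 16.0 CPM in CD61 low and 48.0 ± 2.78 in CD61 high cells (SD, n = 3; Log2FC -1.34), Chac1 at 52.1 ± 5.99 and 23.5 ± 3.87 (-1.15), and Trib3 at 182.8 ± 15.4 and 94.5 ± 10.4 (-0.95, not called). Atf4 itself, which is controlled mainly by translation, had a Log2FC of 0.49 at day 7 and -0.57 in the sort, neither called.

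**Figure D5:**
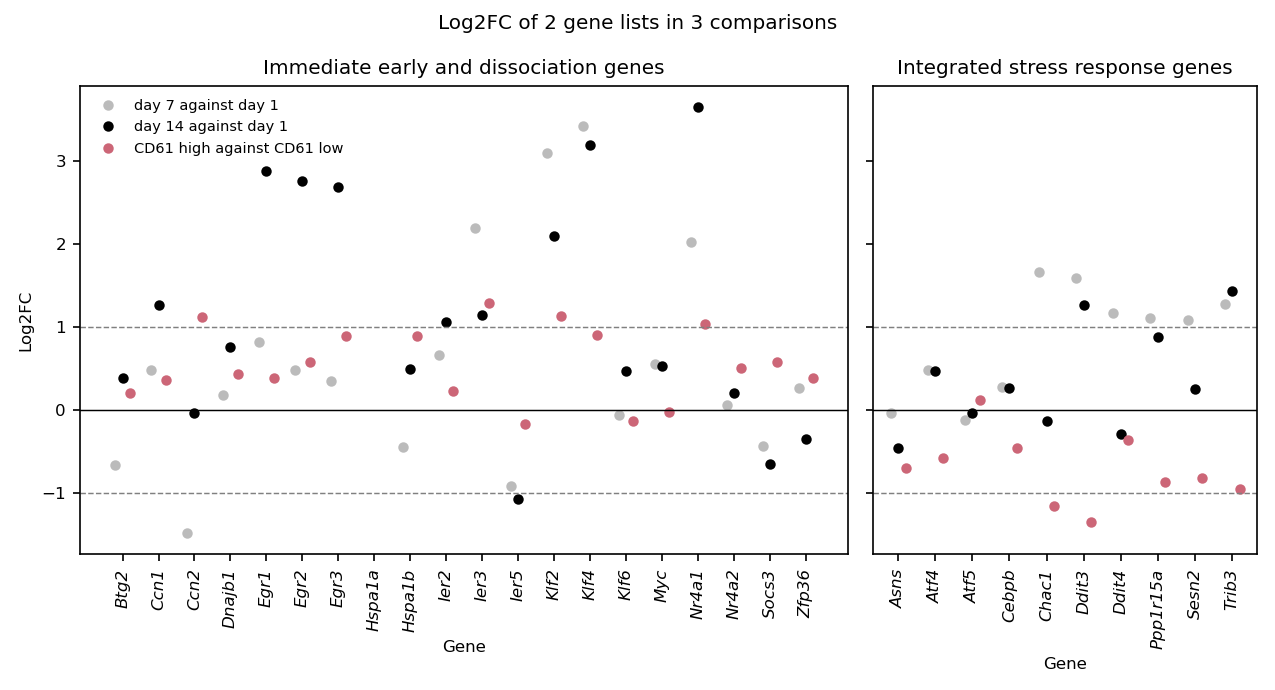
Log2FC (vertical axis) of the listed immediate early and dissociation genes (left) and integrated stress response genes (right) for days 7 and 14 against day 1 and for CD61 high against CD61 low cells; dashed lines mark 1 and -1, and Hspa1a, which did not pass the filters, has no point. In the sort, 16 of the 19 genes tested on the left lie above 0 and 9 of the 10 on the right below it.

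Of 27 genes of the MAP kinase cascade and its phosphatases, which control AP-1, 26 were tested in each experiment. At day 14 against day 1, limma called 1 higher and 0 lower, beside 7.51% and 5.9% of all genes, or 11 and 8 at an unadjusted p below 0.05, beside 36.8% and 40.5%. Dusp8 rose from 5.44 ± 0.07 to 42.2 ± 1.83 CPM (SD, n = 2; Log2FC 2.75), and Dusp1, an early phosphatase, was at 4.21 ± 0.10 and 8.91 ± 0.42 CPM (0.93, not called). At day 10 against day 1, 3 were called higher and 1 lower, beside 6.06% and 4.42% of all genes, and the lower one was the kinase Rps6ka2, which was at 49.0 ± 0.46 CPM on day 1 and 15.0 ± 0.70 on day 10 (Log2FC -1.65). In the sort edgeR called 0 higher and 2 lower, beside 4.84% and 4.37% of all genes, or 4 and 10 at an unadjusted p below 0.05, beside 29.3% and 27.3%. With library size alone it called 0 and 4, beside 2.6% and 8.12%. Rps6ka2 was again among the lower genes, at 36.2 ± 1.23 CPM in CD61 low and 17.2 ± 0.36 in CD61 high cells (SD, n = 3; Log2FC -1.08). The medians of this list were 0.10 at day 14 against day 1 and -0.09 in the sort. Dusp6, a phosphatase of ERK kinases, was at 22.3 ± 2.37 and 11.5 ± 2.30 CPM in the sort (Log2FC -0.96, not called).

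Of 11 other AP-1 family and Maf genes, 7 were tested in each experiment. At day 14 against day 1 limma and edgeR on the recovered reads both called 0 of them, beside 7.51% of all genes called higher and 5.9% lower in limma, 4 had an unadjusted p below 0.05 in limma, as did 77.3% of all genes, and Maf, a large Maf factor, was at 161.7 ± 4.55 CPM on day 1 and 87.0 ± 0.09 on day 14 (SD, n = 2; Log2FC -0.89). In the sort 1 was called lower, beside 4.37% of all genes. This was Mafk, a small Maf factor like Maff, at 27.8 ± 2.08 CPM in CD61 low and 13.7 ± 0.46 in CD61 high cells (SD, n = 3; Log2FC -1.02). Over differentiation Mafk was at 35.2 ± 1.20 CPM on day 1 and 27.9 ± 1.40 on day 14 (Log2FC -0.33).

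Genes known as AP-1 targets in other systems, a list of 19, went both ways over differentiation. In the sort, in the main scaling, 12 of the 14 tested had a Log2FC above 0 and 2 below it. At day 14 against day 1, 4 of the 16 tested were called higher and 3 lower, beside 7.51% and 5.9% of all genes, with a median Log2FC of 0.06. The bone matrix gene Ibsp was at 220.8 ± 4.77 CPM on day 1 and 4274 ± 31.7 on day 14 (SD, n = 2; Log2FC 4.27), Ptgs2 at 13.9 ± 1.00 and 96.3 ± 0.12 (2.71), and the angiogenic factor Vegfa at 54.0 ± 0.95 and 328.2 ± 6.53 (2.58). The collagenase Mmp13 fell between days 1 and 7, from 94.2 ± 4.52 to 6.17 ± 0.03 CPM (Log2FC -3.73), and was at 32.6 ± 1.27 CPM on day 14. In the sort 8 of the 14 tested were called higher and 2 lower, beside 4.84% and 4.37% of all genes, with a median of 1.05, and with library size alone as the scaling it was 2 and 2, beside 2.6% and 8.12%. The filter, which needs 5 normalized counts in every library, removed 5 genes of this list, among them Ccl2, a chemokine, at 9.43 ± 1.04 CPM in CD61 low and 0.523 ± 0.344 in CD61 high cells, and Mmp9 at 1.24 ± 0.77 and 0.29 ± 0.10 (SD, n = 3). Without the filter Ccl2 was called lower as well (edgeR adjusted p = 2.3e-08), which gave 8 higher and 3 lower. Mmp13 was at 3.44 ± 0.50 CPM in CD61 low and 29.7 ± 1.77 in CD61 high cells (SD, n = 3; Log2FC 3.11), the matrix protein Spp1 at 127.5 ± 11.1 and 441.6 ± 21.5 (1.79), and Tgfb1 at 409.3 ± 30.7 and 1001 ± 27.2 (1.29). Several of these genes are also markers of the bone lineage, and whether AP-1 acts on them was not tested.

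Sequencing depth was 27518605 to 34311238 recovered reads in the time course and 18815602 to 19220064 estimated counts in the sort, and the members with the fewest reads on day 1, Fosb, Fos, Atf3 and Batf3, had from 36 to 132 reads per library there, so that they carry the widest counting error. The 9 osteoblast and osteocyte markers summed to 16845 to 20537 CPM in CD61 low and 47988 to 50520 CPM in CD61 high libraries, moving with the Fos, Fosb and Junb differences. Most of this sum was Col1a1, at means of 17664 and 44785 CPM, while Pdpn was at 15.5 and 11.1 CPM. In the time course the same sum was 35421 to 35468 CPM on day 1 and 25422 to 30644 CPM on day 14, as Col1a1 had means of 34709 and 25243 CPM. Pdpn was also lower on day 14, whereas the other 7 markers had higher means then, among them Alpl at 412 and 1676 CPM, Sp7 at 130 and 664 CPM and Phex at 0.96 and 93.9 CPM. Sost and Mepe were at 0 on day 1. The 4 chondrocyte markers summed to 37.4 to 47.1 CPM after the CD61 low gate and 96.4 to 113.1 CPM after the CD61 high gate. In the time course they summed to 79.8 to 81.2 CPM on day 1 and 102.4 to 120.7 CPM on day 14. On days 7 and 10 the sums were lower, at 75.8 to 77.8 and 66.6 to 67.7 CPM. The part of either list in the AP-1 differences was not tested. Endothelial and adipocyte markers summed to at most 0.755 CPM in any library, and the macrophage marker Adgre1 was at 0 in all of them. The list of 8 macrophage and osteoclast markers that holds Adgre1 summed to 26.9 to 97.1 CPM, most of it from Ctsk, the protease cathepsin K, with means of 18.6 to 87.4 CPM. In the sort that list was at 31.5 to 35.8 CPM in CD61 low and 26.9 to 33.8 in CD61 high libraries, with Cd68 at means of 14.2 and 8.07 CPM. In bulk RNA, fewer cells with a message and less message per cell cannot be told apart. Genes on the opposite strand overlap 8 of the 10 members, among them Prdx2 at Junb, Ccdc85b at Fosl1 and Junos at Jun. Whether the counting used strand is not given in the sources used here.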

How the data were processed

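RNA from Ocy454 cells was sequenced by the authors from 14 samples. For the time course, the authors used STAR for mapping and HTSeq for counting and deposited CPM values. The build and annotation of that table, and whether counting used strand, are not given in the sources used here. Of the CPM values above 0, 99.996% lay within 0.01 of a whole read, and these reads served as an alternative. For the sort, the authors quantified reads with Salmon on GRCm39 and deposited estimated counts and TPM per transcript, with transcript lengths among the other deposited columns. The estimated counts of 115556 of 116747 transcripts were summed per gene with GENCODE M39 and rounded.

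The time course was tested with limma 3.58.1 (eBayes with a trend) on log2(CPM + 1) over all 8 libraries, for the 12725 genes that exceeded a CPM of 1 in any library. The sort was tested with edgeR 4.0.16 (quasi-likelihood, TMM over all genes) for the 12077 genes that reached 5 normalized counts in every one of the 6 libraries, in R 4.3.3. P-values were adjusted over all genes tested (Benjamini-Hochberg), two-sided, and a call needed an adjusted p under 0.01 with a Log2FC past 1 or -1. Both procedures were also run on simulated data with the same dispersion for every gene, and no result here rests on that run. The simulated time course set day 14 against all the other libraries, unlike the comparisons reported. Levels between genes were compared per kb of the table's gene length, with the annotated exon length as an alternative, or by TPM, without a test. Named from each list were at most the 3 genes with the largest absolute Log2FC and a mean of at least 5 CPM. Egr1 and Nr4a1 in the sort, Atf4, Ccl2 and Mmp9 were named in addition, after their values had been seen. The result of 1 listed gene is not reported here. Gene positions were taken from GENCODE M39 on GRCm39, and promoter sequences from RefSeq on GRCm38.p6. The 10 members and the gene lists were chosen with earlier results of these data known. The study's methods describe the time course samples as biological duplicates and the sorted samples as coming from 3 independent groups of cells. Both experiments used 1 cell line, so p-values measure the spread between these samples. Alternatives, including DESeq2 1.42.0, are described in the closing section. Scripts ran in Python 3.11.15 (pandas 2.3.3, matplotlib 3.10.9).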

Additional observations from a re-analysis of the deposited data

How the results depend on the processing

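Apart from the fold threshold, no setting tried changed the number of AP-1 subunit genes called by more than 1.5 times, other than 1 left-out library. Without a minimum Log2FC the count was 9 at day 7, 8 at day 10 and 8 at day 14 against day 1, 7 at day 10 against day 7 and 6 at day 14 against day 10. By that rule 56.5%, 63.5%, 68.6%, 48.7% and 52.8% of all genes were called in the same comparisons. With each library left out, the counts were 3 to 4, 4 to 4, 5 to 6, 1 to 2 and 0 to 0 in the same order, and 2 to 3 in the sort. The count of 1 came without day 10 replicate 1, when Jun lost its call. The sort gave 2 with library size alone, and 3 with DESeq2, RLE factors, TMM after the filter, other filters and the length offset. Values near 0 changed sign. Jun at day 10 against day 1 was -0.222 to 0.0134 with each library left out, above 0 without day 10 replicate 2. Junb there was -0.0035 with TMM on recovered reads, -0.006 in edgeR on those reads and -0.0455 to 0.0859 with each library left out, below 0 without day 1 replicate 2. Jund at day 10 against day 7 was -0.0155 with TMM, -0.0137 in edgeR and -0.0299 to 0.1376 with each library left out, and Jun at day 14 against day 10 was 0.0027, 0.0032 and -0.1733 to 0.0621. Both changed sign without day 10 replicate 1. In the sort, library size alone gave -0.1165 for Fosl1, -0.0377 for Jund and -0.0378 for Maff. Counts per kb of annotated exon gave Junb a share of 36.3% in CD61 low and 39.5% in CD61 high cells, against 41.6% and 44.3% by TPM. In the time course, the analysis plan named the annotated exon length in place of the table's. With it the share of Junb was 22.6%, 20.2%, 14.6% and 21.5% on days 1, 7, 10 and 14. That of Jund was 42.3%, 53.4%, 49.8% and 46.5%. Only the length differs between these settings.

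Whether same-numbered samples shared a culture is not stated, and a correlation over so few samples cannot settle it. The correlation of same-numbered deviations was -0.03 to 0.06 in the time course and -0.25, 0.16 and -0.05 in the sort. With the replicate block, the counts of members called were 3, 4, 5, 2 and 0 in the time course and 3 in the sort, as without it, and the Log2FC in the sort was 1.17 for Fos, 1.66 for Fosb and -1.27 for Atf3. Fosb at day 14 against day 1 had a Log2FC of 2.97 in edgeR on the recovered reads, against 2.22.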
